A study of Drosophila melanogaster with 3 samples.

Results

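The loci described here are places where the fly protein CG8119 was found on DNA in the first 500 bp after an annotated transcript start. They were chosen by position alone. Peak summits of the 3 replicates were joined where neighbouring summits lay within 150 bp, a locus was kept when all 3 replicates had a summit in it, and its centre, the median summit, had to lie 0 to 500 bp downstream of the nearest start in the direction of the transcript. Of 9014 joined loci 3746 were shared by the 3 replicates, and 266 of these (7.10%) met the rule. They are called downstream loci below. Without replicate 3, whose list is the shortest, 449 loci met the same rule in the other 2 replicates. A further 933 shared loci lay 1 to 500 bp upstream of the nearest start and serve as the main comparison, and 2547 lay farther away.

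The assay was chromatin immunoprecipitation followed by sequencing (ChIP-seq) on whole prepupae, age 1 day, of the Drosophila melanogaster strain CG8119-GFP, which carries an inserted transgene for CG8119 fused to eGFP. An antibody against GFP pulled down the fusion protein with sonicated chromatin. The 3 samples are biological replicates of 1 group from 1 strain, sex was not recorded, and no second genotype, stage or treatment was analysed, so no condition is compared. The protein came from a transgene in whole animals, so which tissues held it at a given locus is not known, and a locus near a gene does not show that the gene is regulated.

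Transcription of a gene by RNA polymerase II begins at the core promoter. The DNA just before the start is often kept free of nucleosomes and is where many transcription factors bind, while the DNA just after it holds the 5′ untranslated region (UTR), often a pausing site of the polymerase, and in many fly genes the beginning of a first intron that can carry further regulatory sequence. Many fly genes use several alternative starts, and neighbouring genes are often transcribed away from each other from starts a short distance apart, so a site that is downstream of one start may be upstream of another.

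Stretches of genome around the centres of named downstream loci are shown first, because base composition is described below and varies from locus to locus. Each was read from the dm6 genome on the strand of the transcript, 5′ to 3′, and capitals mark runs of 5 or more A or 5 or more T. Where no annotated UTR touches the window, 121 bp are given. These are a selection of strong loci of this kind, with hng3 and Hr78 from the gene lists and the coding-exon locus of CG5167. The selection is not a complete ranking. The loci of asRNA:CR45928 and lncRNA:CR45997, whose centres also lie outside UTRs, are stronger than that of rudhira but are not shown. The G+C content within 100 bp of the centre was 44.3% at asRNA:CR45928.
Cat, intron, chr3L:18822868-18822988, plus strand: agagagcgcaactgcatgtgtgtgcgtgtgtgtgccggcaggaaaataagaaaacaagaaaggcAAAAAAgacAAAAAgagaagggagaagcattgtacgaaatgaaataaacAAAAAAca
lncRNA:CR44149, exon of the noncoding RNA, chr2L:9568653-9568773, minus strand: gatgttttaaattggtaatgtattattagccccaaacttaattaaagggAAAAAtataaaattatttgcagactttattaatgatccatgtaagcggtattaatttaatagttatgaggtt
lncRNA:CR44619, exon of the noncoding RNA, chrX:12752291-12752411, plus strand: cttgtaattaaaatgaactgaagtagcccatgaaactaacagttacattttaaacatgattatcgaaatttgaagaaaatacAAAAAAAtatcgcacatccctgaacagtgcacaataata
lncRNA:CR44676, beyond the short transcript, chr3L:19560754-19560874, minus strand: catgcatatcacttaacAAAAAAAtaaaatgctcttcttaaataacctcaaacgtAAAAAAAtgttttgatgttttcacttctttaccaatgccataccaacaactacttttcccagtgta
lncRNA:CR44091, exon of the noncoding RNA, chr3R:31680929-31681049, minus strand: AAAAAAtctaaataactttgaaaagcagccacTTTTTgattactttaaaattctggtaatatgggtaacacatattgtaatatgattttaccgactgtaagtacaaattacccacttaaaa
scramb2, intron, chr3L:3046397-3046517, minus strand: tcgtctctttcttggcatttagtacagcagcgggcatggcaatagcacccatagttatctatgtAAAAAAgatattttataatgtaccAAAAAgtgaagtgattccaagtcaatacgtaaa
rudhira, intron, chrX:11818539-11818659, plus strand: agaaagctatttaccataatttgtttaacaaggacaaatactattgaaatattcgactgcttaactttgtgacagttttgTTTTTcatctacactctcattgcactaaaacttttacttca
hng3, intron, chr3L:738823-738943, minus strand: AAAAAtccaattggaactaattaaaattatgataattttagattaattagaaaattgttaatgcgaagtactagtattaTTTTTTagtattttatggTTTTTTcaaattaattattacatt
Hr78, intron, chr3L:21497011-21497131, minus strand: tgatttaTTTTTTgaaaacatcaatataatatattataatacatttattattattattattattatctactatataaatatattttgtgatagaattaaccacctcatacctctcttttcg
CG5167, coding exon, chr3R:12406813-12406933, plus strand: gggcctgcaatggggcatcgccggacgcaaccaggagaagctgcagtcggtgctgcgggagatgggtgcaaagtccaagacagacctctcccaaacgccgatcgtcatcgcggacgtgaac

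The G+C content of these windows was 16.5% at hng3, 17.4% at Hr78 and 24.8% at lncRNA:CR44149, against 39.7% at Cat. The window of CG5167 stands apart at 62.8%, with no run of 5 A or T. Cat, the gene of catalase, has 3 such runs, and all of them are A on the strand of the transcript. For the strongest loci that lie in an annotated 5′ UTR, and for Eip75B and Trl from the gene lists, the central 29 bp are given.
PNPase, chr3R:31404643-31404671, minus strand: aacgtacagggcttttattgtaagatttt
Chro, chr3L:22878890-22878918, minus strand: tggactgcagttagtttaaagctatcgac
CG9147, chr2L:6066087-6066115, plus strand: gcagtagttcAAAAAttaagttaacaata
ph-p, chrX:2137903-2137931, minus strand: atataattctattttactaaacgttttca
Eip75B, chr3L:17999775-17999803, minus strand: tgataataaacaacttgccAAAAAAAAtc
Trl, chr3L:14757188-14757216, minus strand: gaagagaattttccccgtaaccgttaaac

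Peak signals are the authors' values, and no source used here states their scale. Strength is therefore given as the percentile of a peak's signal within its replicate's own thresholded list, and for a locus as the mean of its 3 percentiles. The lists hold 7279, 6769 and 4608 peaks in replicates 1, 2 and 3, and read depth is unknown.

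The strongest downstream locus lay 83 bp after the start of PNPase, the gene of a polynucleotide phosphorylase that works on mitochondrial RNA, in its 5′ UTR. In replicates 1, 2 and 3 its peak had signals of 1261, 1116 and 854, which is the 99.9th, 99.9th and 99.8th percentile of the lists. Chro, which encodes the chromodomain protein Chromator of interband chromatin, followed with a 5′ UTR locus at +80 and signals of 907, 801 and 717. The third, CG9147 at +14, had 846, 776 and 675. In all 3 of these the signal of replicate 1 was the highest and that of replicate 3 the lowest.

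The fourth locus lay 454 bp after a start of ph-p, the proximal polyhomeotic gene of Polycomb repressive complex 1, with signals of 681, 726 and 585. Pyroxd1, named for a pyridine nucleotide-disulfide oxidoreductase domain, had its locus at +1 with 663, 742 and 573. The intronic locus of Cat at +324 had 828, 633 and 549. The 6 leading loci thus held a mean percentile from 99.1 to 99.9 with an SD over the replicates of at most 0.402.

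The rest of the 25 strongest covers several kinds of gene. GstE13 encodes a glutathione S-transferase, Elp5 a subunit of the Elongator complex, mRpL23 a protein of the mitochondrial ribosome, Vti1b a SNARE of vesicle fusion, scramb2 a phospholipid scramblase, SCOT an enzyme of ketone body use and Atat an acetyltransferase of alpha-tubulin. Noncoding RNAs held 6 of the 25 places, among them lncRNA:CR44149 at +72 with a mean percentile of 98.8 and asRNA:CR45928 at +79 with 98.2. The remaining protein-coding genes were CG8320, hdly, tank, CG11309, CG8360 and rudhira. Atat closed the group at +1, with a mean percentile of 95.5.

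**Figure D1:**
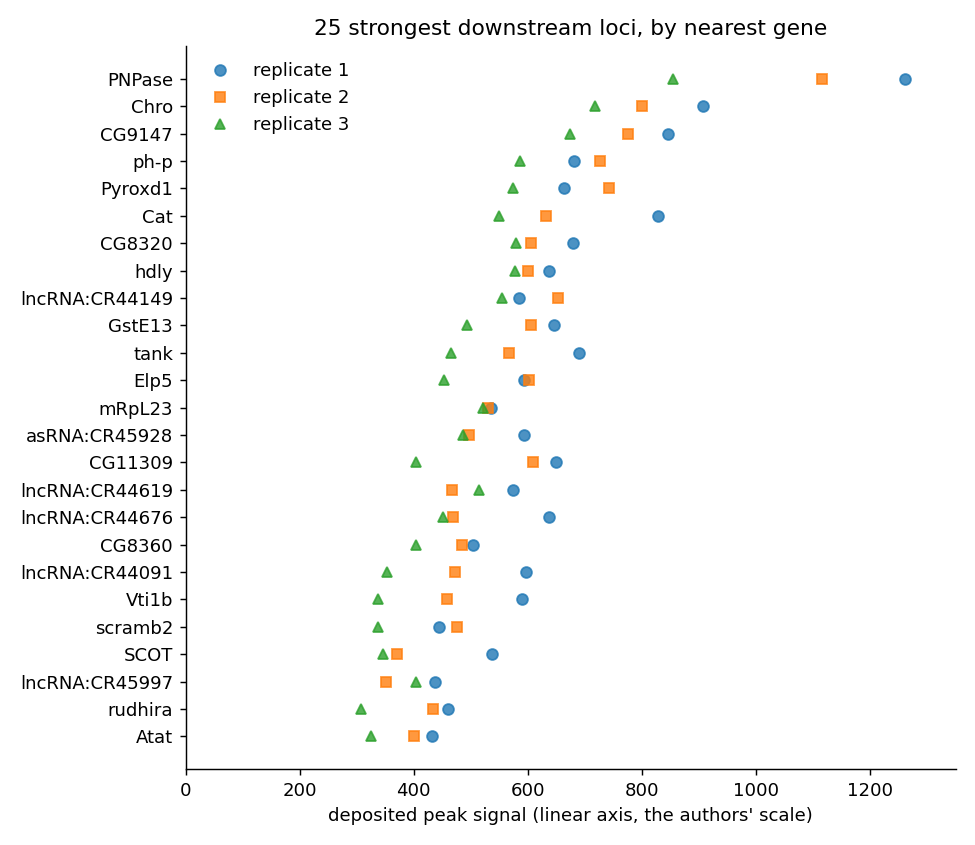
The deposited peak signal (horizontal, the authors' scale, linear) of the 25 strongest downstream loci, ordered from the top by mean percentile and named by nearest gene, with 1 symbol per replicate. PNPase leads in every replicate (1261, 1116 and 854), and Atat, the lowest row, has 431, 400 and 325.

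At the other end, RpL36, a gene of the cytosolic ribosome, had the weakest locus, with percentiles of 40.1, 17.4 and 6.61. The 266 loci spanned mean percentiles from 21.4 to 99.9 with a median of 68.0 and quartiles of 47.5 and 86.0. The replicates ranked the loci alike: across the 266 loci Spearman's rho of the percentiles was 0.895 between replicates 1 and 2, 0.883 between 1 and 3 and 0.900 between 2 and 3. Loci are not independent replicates, and membership in all 3 lists was a condition, so these coefficients are descriptions. Of the 266 centres, 262 (98.5%) also lay in a peak of the conservative pooled list that the authors deposited for the whole series, and the longer pooled list gave the same number. At upstream loci the share was 98.8%. The pooled lists are of the same series, and these loci had to be in all 3 lists, so this overlap is not independent evidence. The median span between the summits of a locus was 31.5 bp.

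Downstream loci were weaker than upstream loci in each replicate and stronger than the loci far from starts. The median percentile was 75.2, 72.0 and 60.04 at downstream loci in replicates 1, 2 and 3, against 78.9, 77.7 and 68.0 at upstream loci. The difference was −5.78 ± 2.11 percentile points (SD, n = 3) and had the same sign in 3 of 3 replicates, with an exact sign-flip permutation p of 0.25, two-sided, which is the smallest that 3 replicates allow. Without replicate 3 it was −11.4. At the shared loci over 500 bp from a start the medians were 70.9, 68.97 and 56.2, so downstream loci were 3.69 ± 0.647 points higher (SD, n = 3), again in 3 of 3 replicates with an exact p of 0.25. A mean percentile of 90 or more was reached by 50 downstream loci (18.8%) and 243 upstream loci (26.0%).

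Each replicate's own list, before any joining, placed fewer summits downstream than upstream. Replicate 1 had 814 downstream summits (11.2% of its peaks), replicate 2 had 657 (9.71%) and replicate 3 had 347 (7.53%). The upstream shares were 24.9%, 23.5% and 24.5%. The means were 9.47% ± 1.84 downstream and 24.3% ± 0.669 upstream (SD, n = 3; exact sign-flip permutation p = 0.25, lower in 3 of 3 replicates). The downstream share varied more between replicates than the upstream share did, and the share of a replicate's downstream summits that belonged to a shared downstream locus was 31.2%, 38.5% and 73.2%. The median G+C content around a replicate's downstream summits was 42.8%, 40.3% and 38.3%, against 37.3% at the shared downstream loci.

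**Figure D2:**
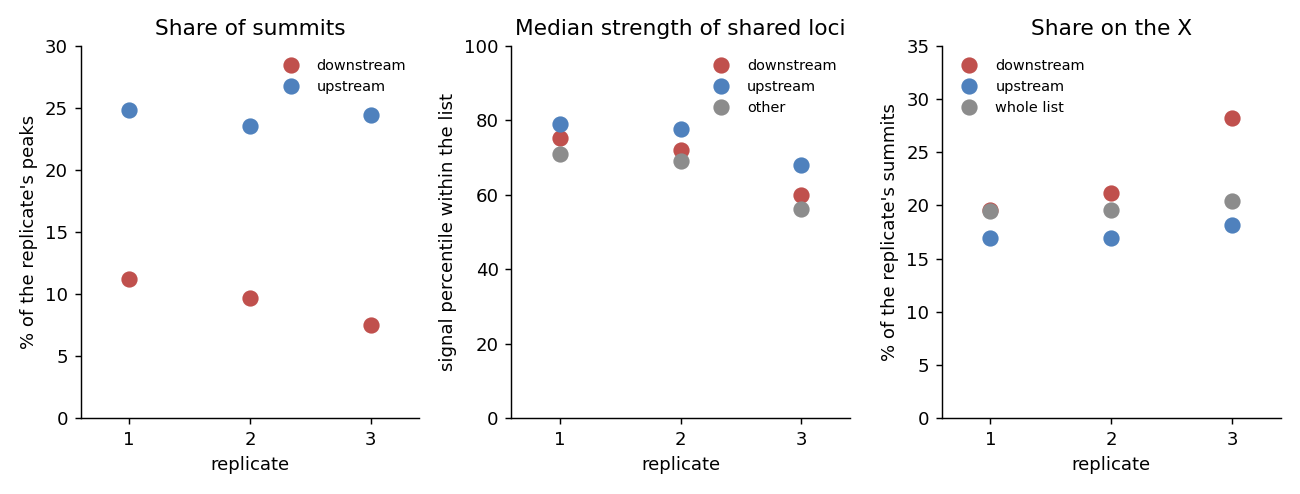
Values for each of the 3 replicates (horizontal): the share of its summits 0 to 500 bp downstream or 1 to 500 bp upstream of the nearest start (left, %), the median signal percentile of shared loci (middle), and the share of summits on the X (right, %), with red for downstream, blue for upstream and grey for other shared loci (middle) or the whole list (right). Red lies below blue in the left and middle panels in all 3 replicates and above blue in the right panel, where replicate 3 is highest at 28.2%.

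Within the 500 bp the centres were not spread evenly. The median offset was 179 bp with quartiles of 88 and 355 bp. Counted per Mb of DNA at the same distance from its nearest start, the density was 24.8 loci per Mb from 0 to 50 bp, rose to 48.5 from 51 to 100 bp and 40.0 from 101 to 150 bp, and lay at 17.7, 16.2 and 13.4 in the next 3 steps of 50 bp. It was 27.3 from 301 to 350 bp and 31.02 from 351 to 400 bp. Upstream of the start the highest density was 195 loci per Mb, from 199 to 150 bp before it, and the last 49 bp before the start held 41.6 per Mb. Over bases outside coding exons the same pattern was seen, with 59.3 and 60.5 per Mb from 51 to 150 bp, 24.02 from 251 to 300 bp and 56.8 from 351 to 400 bp. The limits of these ranges were chosen after the values were seen, and no test was made of them.

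**Figure D3:**
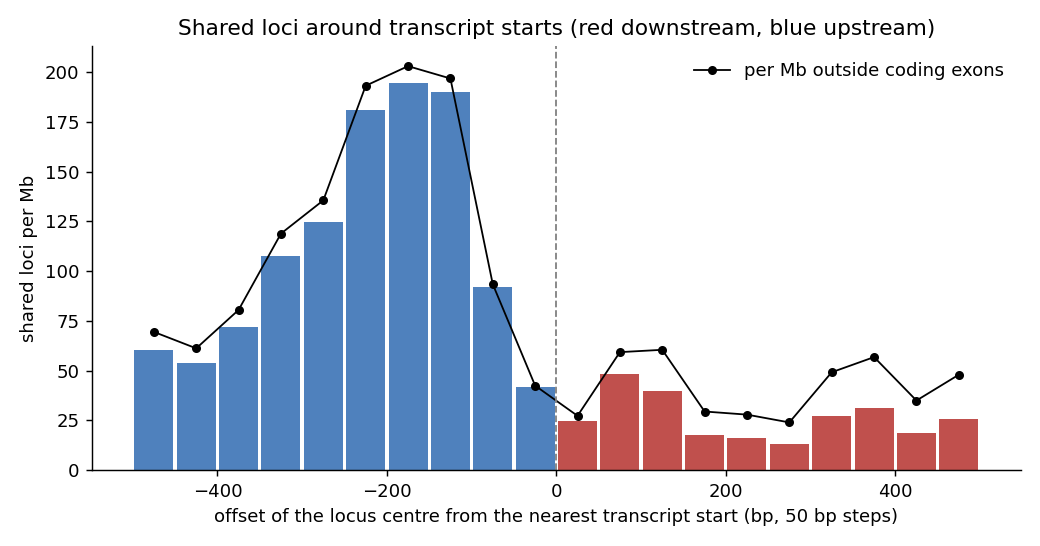
Shared loci per Mb (vertical) in steps of 50 bp of offset from the nearest start (horizontal, negative is upstream); bars count all bases whose nearest start is at that offset and the black line counts loci and bases outside coding exons. Upstream bars peak at 195 per Mb, and downstream bars have a high at 51 to 150 bp, a low of 13.4 at 251 to 300 bp and a further high at 301 to 400 bp.

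The loci near the start and those farther in differed in what lay around them. From 0 to 200 bp there were 142 loci, and 80 of them (56.3%) also lay within 500 bp upstream of another annotated start. For 61 loci this was an alternative start of the same gene, and for 54 a start of a gene on the opposite strand, with some loci having both. From 301 to 500 bp there were 95 loci, and 5 (5.26%) were upstream of another start in this way. Part of this contrast is set by the rule, since the other start must be farther away than the nearest one. With 1000 bp allowed, the counts were 86 of 142 and 18 of 95. Over all downstream loci, 88 of 266 (33.1%) lay within 500 bp upstream of another start. The median strength was 74.1 at those 88 and 65.98 at the other 178.

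Among the 25 strongest downstream loci 12 (48.0%) lay within 500 bp upstream of a gene on the opposite strand, against 59 of all 266 (22.2%). Of the 25, 17 lay 0 to 200 bp after the start. In that range 54 of all 142 downstream loci had such an opposite gene, against 4 of 95 from 301 to 500 bp. The locus of Chro lay 185 bp upstream of the start of Ssl1, that of CG9147 lay 148 bp upstream of Fbw5, and that of Pyroxd1 lay 88 bp upstream of CG10747. The locus of Elp5 at +55 was 88 bp upstream of CG1275, and that of mRpL23 at +62 was 112 bp upstream of CG9004. In each of these cases the 2 starts point away from each other and lie on the same side of the locus, which is just inside the gene of the nearer start. The loci of PNPase, ph-p, Cat and hdly had no opposite gene within that distance.

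By annotation, 128 downstream centres (48.1%) lay in a 5′ UTR and 93 (34.96%) in an intron. A further 35 (13.2%) lay in an exon with no coding or UTR annotation, such as that of a noncoding RNA. Outside any transcript lay 5 (1.88%), and 1 was in a 3′ UTR. Coding exons held 4 (1.504%), although they make up 36.9% of the bases that lie 0 to 500 bp after a nearest start. In density this is 1.09 loci per Mb of coding exon, 42.7 per Mb of 5′ UTR and 48.8 per Mb of intron. A base was counted as coding wherever any transcript codes there, then as UTR, other exon and intron in that order. The 4 coding-exon loci were at Acadvl, an acyl-CoA dehydrogenase for very long chains (mean percentile 79.1), CG44812 (57.9), Hers, a repressor of histone genes (30.4), and CG5167 (26.4), the GC-rich window printed above. Without replicate 3, 10 of 449 loci were in coding exons. Beyond the first exon lay 117 centres (44.0%), and the first exon from the nearest start had a median length of 265 bp. From 0 to 200 bp, 26 of 142 loci were intronic, and from 301 to 500 bp 51 of 95 were.

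**Figure D4:**
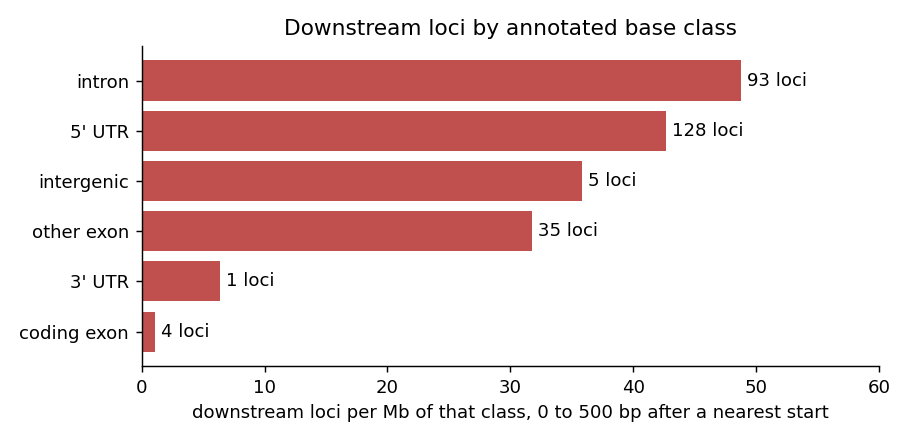
Downstream loci per Mb (horizontal) of each annotated base class among all bases 0 to 500 bp after their nearest start, with the number of loci beside each bar. Introns (48.8) and 5′ UTRs (42.7) are the densest, and coding exons hold 1.09 per Mb.

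The nearest start belonged to a protein-coding gene for 213 loci (80.1%), to a noncoding RNA for 50 (18.8%), to a pseudogene for 2 and to a tRNA gene for 1. Noncoding RNAs made up 8.57% at upstream loci and 17.7% at other shared loci. Noncoding RNA and other non-coding genes were nearest to 19 of the 142 loci within 200 bp and to 29 of the 95 loci from 301 to 500 bp. Over nearest genes of every kind, noncoding ones included, the median length was 3925 bp at downstream loci and 5573 bp at upstream loci. All protein-coding genes had a median of 2165 bp, which is a value for a different kind of set. The 266 loci fell on 263 genes. egh, Orp8 and ogre had a pair each, at different starts: egh, a glycosyltransferase gene on the X, at +377 and +369 with mean percentiles of 66.1 and 65.9, and ogre, an innexin gene, at +286 and +46 with 67.2 and 36.6. Orp8, a gene of an oxysterol-binding protein relative, had loci at +94 and +37 with 71.0 and 51.1.

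The same start as a downstream locus had a shared upstream locus in 9 cases, and the same gene had one, mostly at another start, in 31. Another shared locus lay within 1000 bp of 38 downstream loci (14.3%), compared with 11.3% of upstream loci. All 3 peaks covered the start itself at 84 loci, and none of the 3 did at 123. Peak width carries little information, because 68.8%, 74.5% and 80.6% of the peaks in the replicates had a single fixed width of 390, 376 and 360 bp. The median width of downstream minus upstream loci differed by 7.17 ± 15.5 bp (SD, n = 3; exact sign-flip permutation p = 1).

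The X chromosome held more downstream loci than any other arm. It had 75 of the 266 (28.2%), against 48 on 2L, 45 on 2R, 51 on 3L and 47 on 3R. Of upstream loci 18.6% were on the X, of other shared loci 20.5%, of protein-coding genes 15.7% and of their starts 17.0%. Within the replicates' own lists the X share of downstream summits stood at 19.5%, 21.2% and 28.2%, against 16.9%, 16.9% and 18.2% upstream and 19.5%, 19.5% and 20.4% in the whole lists. In replicate 1 the downstream share was thus that of the whole list. The difference from upstream was 5.63 ± 3.91 percentage points (SD, n = 3; exact sign-flip permutation p = 0.25, higher in 3 of 3 replicates). It was largest in replicate 3, which has the shortest list, and 3.42 points without that replicate. Strength did not follow this order: for the X loci the median strength was a percentile of 61.7, the lowest of the 5 arms, whose highest was 77.0 on 3L, and 3 of the 25 strongest were on the X.

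On average the centres lay in DNA richer in A and T than their surroundings. The median G+C content within 100 bp was 37.3% at downstream loci, 31.8% at upstream loci, 32.8% at other shared loci and 45.8% at protein-coding starts when the window was centred 179 bp after them, the median offset of the loci. In steps of 25 bp the mean G+C content at loci 0 to 200 bp after the start fell from 47.0% at 150 to 125 bp before the centre to 34.0% just before it, and was 46.6% again by 125 to 150 bp after it. At loci 301 to 500 bp after the start the lowest step was 31.6%. By base class, the 5′ UTR bases in the windows had 39.5% G+C against 42.4% for all 5′ UTR bases in the first 500 bp, and intron bases 35.4% against 37.7%. Exons with no coding or UTR annotation had 35.8% against 44.9%, and coding exons the reverse order, 55.4% against 52.9%. The coding value rests on only 1.47 kb of window bases, against 20.7 kb for 5′ UTRs and 14.8 kb for introns. Across the 266 loci Spearman's rho between mean percentile and G+C content was −0.279, and −0.132 across the 933 upstream loci, as a description.

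**Figure D5:**
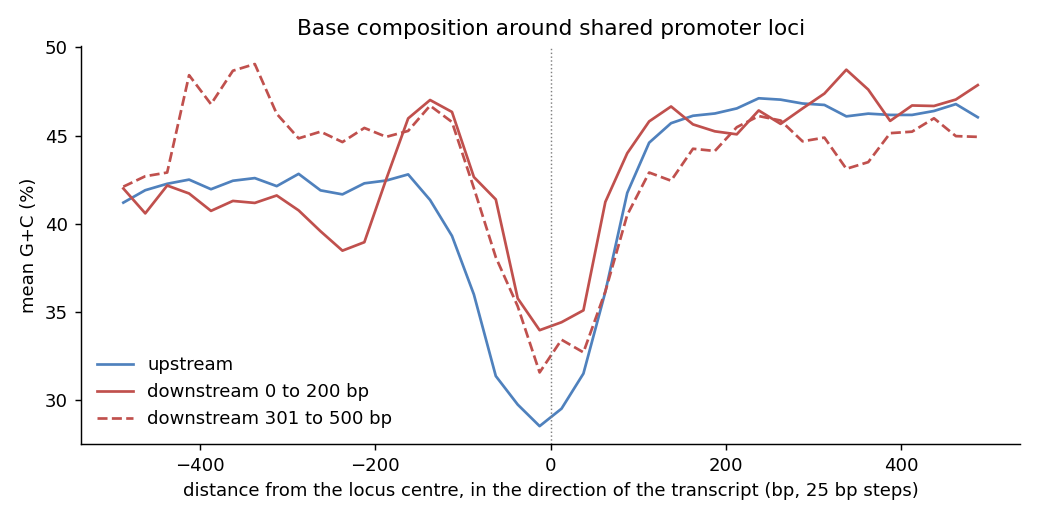
Mean G+C content (vertical, %) in steps of 25 bp around the locus centre (horizontal, in the direction of the transcript) for upstream loci (blue) and for downstream loci 0 to 200 bp (solid red) and 301 to 500 bp (dashed red) after the start. All 3 lines dip at the centre, to 28.5%, 34.0% and 31.6%.

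The A and T of these stretches were not placed alike on the strands. A run of 7 or more A or T lay within 100 bp of 101 downstream centres (37.97%), compared with 33.8% of upstream centres and 13.8% of the windows at protein-coding starts. On the strand of the transcript a run of A was present at 74 downstream loci (27.8%) and a run of T at 44 (16.5%). At upstream loci the shares were 16.8% for A and 20.04% for T. Most of the asymmetry came from 5′ UTRs, where 44 of 128 loci had the A run and 17 the T run, while at the 93 intronic loci the counts were 19 and 18. Windows at all protein-coding starts showed 8.57% with an A run and 6.01% with a T run.

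Fixed sequence words, 14 in number, were counted on both strands within 100 bp of the centre. TATAAA, the core of the TATA box, was present at 78 downstream loci (29.3%), 42.6% of upstream loci, 39.2% of other shared loci and 15.3% of the windows at protein-coding starts. The AT-rich AATTAAAT was present at 2.63%, 12.1%, 8.60% and 3.54% in the same order. The word GAGAG, which the GAGA factor binds, was in 26.7%, 26.4%, 21.6% and 21.3%, and CACACA in 20.7%, 13.8%, 14.3% and 18.6%. TTATTTA was in 21.1%, 26.4%, 20.4% and 7.92%, and CCAAT in 27.4%, 33.1%, 30.6% and 36.8%. The initiator core TCAGT was in 28.6%, 32.9%, 36.6% and 29.6%, and the E-box CAGCTG in 7.89%, 5.79%, 4.55% and 10.2%. The replication-related element TATCGATA, the M1BP word GGTCACAC, the palindromic E-box CACGTG, the Zelda word CAGGTAG, the nuclear receptor word AGGTCA and the cyclic AMP response element TGACGTCA were each in at most 2.63% of downstream loci. These are counts of letters and not of bound sites. TATAAA, AATTAAAT and TTATTTA hold only A and T, so their counts are not independent of base composition. The median G+C content was 37.3% at downstream and 31.8% at upstream loci.

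The centres were also set against flanks of the same loci, which are themselves a chosen region with a higher G+C content. Over all downstream loci its mean was 45.9% from 125 to 101 bp before the centre and 33.1% in the last 25 bp before it. The words below hold only A and T, so their counts are not independent of this difference in composition. AAATAAA or its reverse complement lay within 30 bp of 38 downstream centres (14.3%), and in 8 (3.01%) and 9 (3.38%) of the flanks of the same width, 70 to 130 bp to the left and right. ATAAAAA lay at 30 centres (11.3%) and in 5 and 6 of the flanks. AAAAAAA lay at 48 centres (18.0%) and in 19 and 21 of the flanks. At upstream loci AAATAAA was at 14.9% of centres and in 8.57% and 7.29% of flanks. These 3 words were picked after the values were seen and are given without a test.

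Genes were also read by list. A downstream locus had its nearest start in 210 of 13968 protein-coding genes, which is 1.5%, and an upstream locus in 792 (5.67%). Without replicate 3 the downstream count was 366. The share of 1.5% is the background for the lists that follow, which were described by counts and not tested.

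Polycomb and Trithorax group genes, which keep developmental genes off or on, had 5 of 45 genes with a downstream locus (11.1%) and 3 with an upstream one. ph-p is described above. jing, whose product is related to the Polycomb cofactor AEBP2 of mammals, had a 5′ UTR locus at +70 with a mean percentile of 93.9. Trl, which encodes the GAGA factor, had one at +134 with percentiles of 91.1, 91.6 and 88.9. E(z), the histone H3 lysine methyltransferase of Polycomb repressive complex 2, had an intronic locus at +117 with 84.9, 133 bp upstream of the opposite gene Cnep1r2. Psc, a further subunit of Polycomb repressive complex 1, had a 5′ UTR locus at +138 with 80.99, 61.6 and 61.7.

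The insulator and architectural list had 3 of 30 genes with a downstream locus and none with an upstream one. They were Chro, hng3 at +466 in an intron (mean percentile 94.6) and Trl, which is in both lists. The list also holds hng1 and hng2, and whether the hng genes encode insulator proteins was not checked here. Ecdysone response and nuclear receptor genes had 3 of 38 downstream and 9 upstream. The downstream ones were Eip75B, an ecdysone-induced nuclear receptor (+32, 94.7), Hr78, a further nuclear receptor (+112, 83.8), and ken, a zinc finger repressor (+210, 67.5).

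Smaller counts came from signalling and metabolism. Glycolysis had 2 of 14 genes, the hexokinase Hex-A (+295, mean percentile 59.9) and the aldolase Ald1 (+66, 36.0), with 6 upstream. The EGFR and Ras list had 2 of 29, the tyrosine phosphatase csw (+362, 73.5) and the ERK phosphatase Mkp3 (+27, 58.8), with 8 upstream. The Hippo, JAK-STAT and growth list had 2 of 38, the unconventional myosin dachs (+430, 78.9) and the merlin gene Mer (+103, 75.9), with 3 upstream. In small GTPases and vesicle transport 2 of 118 had one, ArfGAP3 (32.7) and Sec16 (35.1).

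Single genes came from 10 further lists. They were mRpL23 of 73 mitochondrial ribosomal proteins, RpL36 of 92 cytosolic ones, eIF3h of 52 translation factors (+314, 74.0), SerRS of 33 aminoacyl-tRNA synthetases (+13, 73.2) and AGO1 of 51 splicing and RNA processing genes (+500, 65.6). Atg13 came from 20 autophagy genes (+196, 79.7), the Hsp90 gene Hsp83 from 33 chaperones (+107, 62.1), and Apc from 43 genes of Wnt, Hedgehog and BMP signalling (+138, 56.6). The circadian list gave dco, the casein kinase also called doubletime (+333, 38.2), among 16 genes, and the neuronal list gave Fas2 (+245, 33.5) among 34. Both differed widely between replicates 1, 2 and 3, with percentiles of 73.2, 26.4 and 15.0 at dco and 33.4, 64.7 and 2.38 at Fas2.

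No downstream locus was found at genes of oxidative phosphorylation (92), the proteasome (48), the general transcription machinery (90), the Notch pathway (30), the cell cycle and DNA replication (45), cell death (24), muscle and actin (23), cuticle proteins (122) or chemosensory receptors (179). Of these, Notch had 6 genes with an upstream locus and the general transcription machinery 6. Against a background of 1.5%, a count of 0 in a list of this length is no result about that list.

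The loci closest to the limits of the rule are given next, with no test. Pyroxd1, Atat, Sec16 and jbug had centres at +1, while Mtap at −3, asRNA:CR46145 at −4 and Faf2 at −6 fell just outside with mean percentiles of 75.5, 91.4 and 58.7. At the far limit AGO1 and chk lay at +500 and lncRNA:CR45542 at +499, with 65.6, 55.6 and 34.4. lncRNA:CR34044 at +501 and Mtp and Scsalpha1 at +502 were left out, with 63.9, 72.2 and 39.4. The gene of CG8119 itself had no downstream locus, and its nearest shared locus was 8671 bp away.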

How the data were processed

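ChIP-seq peak lists of 3 biological replicates were used, on dm6 per the README texts that came with them. Not given in the sources used here are the aligner, the peak caller and the scale of the signal. The authors deposited per peak a scaled score (at least 830 in the thresholded lists, an irreproducible discovery rate, IDR, of 0.01), a signal, and in the ranked lists the −log10 of the global IDR. No read counts were at hand, so depth is unknown and list length limits precision.

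Summits were joined, and starts, exons and UTRs were taken from Ensembl release 115 without transposable elements, on the arms 2L, 2R, 3L, 3R, 4, X and Y. Ties between starts went to protein-coding genes. Sequences came from the RefSeq dm6 genome with pysam 0.24.0, and tables were made with Python 3.11.15, pandas 2.3.3 and NumPy 2.4.6. The join, the offset rule and the exact sign-flip permutation test were tested on simulated lists. Replicates were compared with that test over 3 replicates, whose smallest p is 0.25. Loci and genes are not replicates, and shares over them are descriptions.

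Named genes are those of the 25 strongest loci, up to 4 per gene list by strength, the loci nearest the limits, the coding-exon loci and genes with more than 1 locus; Psc, the last of the 5 in its list, was added after its values were seen. The members, the 26 gene lists and the words were chosen with earlier results of these data known. Some list symbols (7) matched no gene. The general transcription machinery list also holds Spt-I and Sptr, and the vesicle transport list SecCl, SecS and Secp43. Whether these genes belong to the named classes was not checked, so 90 and 118 are counts of list entries. After a first count had been seen, a list of MADF factors with doubtful symbols was dropped, Delta was matched by its full symbol because a synonym had pointed to dorsal, and Ldh was taken off the ecdysone list. Alternatives were other join distances, replicate needs, lists, starts, windows and comparison loci.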

Additional observations from a re-analysis of the deposited data

How the results depend on the processing

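The strength difference kept its sign in all 13 alternatives (−11.8 to −3.04 percentile points), as did the downstream minus upstream share of summits in 10 (−19.8 to −8.14 percentage points) and the X difference in 11 (3.26 to 7.14 points). The counts of 10 and 11 include joins within 50 and 300 bp. Joining cannot change the share or the X difference, which were taken from the lists before it. None of these differences can pass a threshold with 3 replicates or fewer. The 266 loci became 496 with at least 2 of 3 replicates, 153 in the stronger 50% of each list, 142 within 200 bp and 489 within 1000 bp, and 276 to 449 when a replicate was left out, the most without replicate 3. The 210 protein-coding genes became 401, 122, 122 and 382 under the same settings, and 214 to 366 with a replicate left out. The width difference of 7.17 bp turned to −6 in the stronger 50% and was 0 with at least 2 of 3 replicates and, at the least, with a replicate left out (0 to 7.75).

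TATAAA was 13.2 points less frequent than upstream (a difference of −13.2) and kept that sign, at −11.0 with summits joined within 50 bp, −14.7 with at least 2 of 3 replicates, −11.5 in the stronger 50%, −15.1 with protein-coding starts, −13.8 within 200 bp and −9.04 within 1000 bp. It was −10.3 against upstream loci with no opposite gene, −11.9 within 50 bp of the centre, and −13.5 to −12.2 with a replicate left out. The median G+C content was 5.47 points above that of upstream loci, 3.48 within 1000 bp, 6.97 without replicate 3 and 7.46 with at least 2 of 3 replicates. TATAAA holds only A and T, so its difference is not independent of this one. The X held 28.2% of the loci, 21.8% without replicate 3, 22.98% with at least 2 of 3 replicates and 23.5% in the stronger 50%. Coding-exon loci numbered 1 to 13, with 10 of 449 loci without replicate 3, and Polycomb and Trithorax genes 4 to 6. The causes were not tested.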

Other observations

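Of 25 genes of mitochondrial fatty acid oxidation, which shortens fatty acids to acetyl-CoA, 7 had a downstream locus. The list was written after the loci had been seen, so this count is a description and cannot be set against chance; over all protein-coding genes the share was 1.5%. yip2, a thiolase gene, had an intronic locus at +153 with percentiles of 95.0, 93.1 and 90.6. Mtpalpha and Mtpbeta, the subunits of the trifunctional protein, had intronic loci at +371 (mean percentile 85.3) and +158 (76.9). Acadvl had its locus at +94 in a coding exon (79.1) and scu at +179 (54.7). Etf-QO, the ubiquinone oxidoreductase that takes electrons from this pathway, had one at +174 (60.9). Etf-QO, scu and Mtpbeta differed widely between replicates, with SDs of 33.61, 24.23 and 19.03 percentile points, and replicate 3 was the lowest at each. At yip2, Mtpalpha, Acadvl and CG4598 the SD over the replicates was at most 10.35. CG4598 at +19 (53.5) lies 3231 bp from the locus of yip2, so this pair shares a neighbourhood. The G+C content of the window was 36.3% at CG4598, below the 37.3% median of downstream loci, 40.8% at Etf-QO and 43.8% to 52.2% at the other 5. whd, Mcad, Etfb, CG4592 and CG4860 of the list, 5 genes, had an upstream locus, against 5.67% of all protein-coding genes.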
